A study of Mus musculus with 11 samples.

Results

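The genes described here are 44 enzymes, regulators and carriers of fatty acid and glycerophospholipid synthesis, taken by symbol from a table of 24421 rows of RNA counts. They cover the lipogenic regulators, the making of palmitate from acetyl-CoA, the activation of fatty acids, the assembly of phosphatidic acid, diacylglycerol and triacylglycerol, and the choline, ethanolamine, serine and CDP-diacylglycerol branches. All 44 symbols were on the table, and 40 had enough counts to be tested.

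RNA came from lung cells of mouse embryos at day E17.5 that had been enriched on magnetic beads for EpCAM, a surface protein of epithelial cells. There were 6 Control libraries and 5 PRDM3/16KO libraries, the latter from embryos in which floxed Prdm16 and Prdm3 (Mecom) were recombined by ShhCre, a Cre carried at the Shh gene and active in lung epithelium. The labels' breeding scheme crosses ShhCre-positive males with Prdm3 fl/fl and Prdm16 fl/wt alleles to females with both genes fl/fl, so all offspring of that cross would carry floxed Prdm3. The design text speaks of wild type mice, and which floxed alleles or Cre the Control embryos carried is not given in the sources used here. Nothing in the labels says that each library is a separate embryo; p-values here therefore measure only how these libraries vary, and some of that variation may be technical.

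Lung type 2 cells make surfactant, whose main lipid is a phosphatidylcholine with saturated palmitate chains. Acetyl-CoA from citrate or acetate is carboxylated to malonyl-CoA and lengthened to palmitate by fatty acid synthase. Acyl-CoA is then joined to glycerol 3-phosphate to give phosphatidic acid, and lipins turn that into diacylglycerol, the branch point between triacylglycerol and the phospholipids made with CDP-choline or CDP-ethanolamine. SREBP-1c, from Srebf1, and ChREBP, from Mlxipl, are transcription factors that switch on lipogenic genes in liver and fat. In the fetal lung this synthesis increases before birth as type 2 cells mature.

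Totals ran from 6065906 to 7869787 counts per library. Epcam itself was at 252 ± 25.3 CPM (counts scaled to a common library total; SD, n = 6) in Control and 261 ± 10.8 CPM (SD, n = 5) in PRDM3/16KO, and the lung epithelial factor Nkx2-1 at 1335 and 1098 CPM. Of 6 epithelial markers 3 were lower (edgeR, adjusted p under 0.05): Nkx2-1 (log2 fold change -0.28), Cdh1 (-0.18) and Cldn18 (-0.67). The other 3, Epcam (0.051), Krt8 (0.12) and Krt18 (0.15), were not. Summed over the 6, Control libraries held 5939 to 6828 CPM and PRDM3/16KO libraries 5297 to 5769 CPM, without overlap. Counts cover whole genes and check the deletion weakly. Prdm16 was lower with overlapping ranges (log2 fold change -0.28, edgeR, adjusted p = 0.00905). Mecom was higher, with every knockout library above every Control library (0.64, edgeR, adjusted p = 3.26e-07). Shh, the gene that carries the Cre, was lower with overlapping ranges (-0.36, edgeR, adjusted p = 0.00212). Whether the Cre allele or the deletion lowered Shh was not tested. Control libraries 5 and 6 stood apart, with mean log2 CPM of 8 proliferation genes of 4.97 and 5.34 against 3.92 to 4.50 in the other 9 libraries. Summed over 10 type 2 markers they held 8890 and 7145 CPM, where Control libraries 1 to 4 held 10820 to 13200 CPM and the knockout libraries 2681 to 4340 CPM. Transcripts of the Y chromosome were abundant in 4 of the 6 Control libraries and in 1 of the 5 knockout libraries, so sex was not balanced between the groups.

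Promoter windows of 4 members are shown because they hold the letters by which lipogenic promoters are usually described, and because the genes moved in different directions. RefSeq (GRCm38.p6, the build mm10) gave windows of 250 bases before to 50 after a start site for 38 of the 44 members, 56 windows in all. Each is printed 5′ to 3′ on the gene's strand, and capitals mark TCACCCCAC, a sterol regulatory element sequence, CACGTG, an E-box, and CCAAT, the NF-Y box, or their reverse complements. Fasn (chr11:120824498-120824797, minus strand) fell in the knockout, as did Lpin2 (chr17:71183282-71183581, plus strand) and Pcyt1a (chr16:32430671-32430970, plus strand), while Acsl1 (chr8:46490716-46491015, plus strand, the downstream of its 2 windows) rose.
Fasn: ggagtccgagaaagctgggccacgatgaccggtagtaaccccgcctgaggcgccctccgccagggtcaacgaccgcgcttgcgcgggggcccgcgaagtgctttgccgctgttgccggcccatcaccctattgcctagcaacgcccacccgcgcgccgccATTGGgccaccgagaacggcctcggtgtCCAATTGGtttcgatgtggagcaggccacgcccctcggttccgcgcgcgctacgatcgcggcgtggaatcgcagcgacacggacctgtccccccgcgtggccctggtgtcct
Lpin2: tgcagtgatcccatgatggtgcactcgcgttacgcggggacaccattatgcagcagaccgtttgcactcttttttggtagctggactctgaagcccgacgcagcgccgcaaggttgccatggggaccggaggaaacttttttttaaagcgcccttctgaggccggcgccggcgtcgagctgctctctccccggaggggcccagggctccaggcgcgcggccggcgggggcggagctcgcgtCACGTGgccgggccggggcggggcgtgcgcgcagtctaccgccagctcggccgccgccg
Pcyt1a: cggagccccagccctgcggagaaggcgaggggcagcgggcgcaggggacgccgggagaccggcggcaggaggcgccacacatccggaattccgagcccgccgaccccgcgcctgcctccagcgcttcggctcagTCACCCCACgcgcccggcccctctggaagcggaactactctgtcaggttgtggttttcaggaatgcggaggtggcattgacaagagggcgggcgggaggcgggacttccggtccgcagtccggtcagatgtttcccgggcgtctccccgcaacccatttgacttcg
Acsl1: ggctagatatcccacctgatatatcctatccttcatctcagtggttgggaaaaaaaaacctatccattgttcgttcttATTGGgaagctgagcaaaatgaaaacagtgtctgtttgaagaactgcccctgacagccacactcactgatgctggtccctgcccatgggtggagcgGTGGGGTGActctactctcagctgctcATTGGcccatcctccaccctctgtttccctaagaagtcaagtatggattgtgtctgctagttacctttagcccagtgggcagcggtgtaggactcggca
In Pcyt1a the sequence TCACCCCAC starts 116 bases before the start site, and in Acsl1 its reverse complement starts 76 bases before the site. The same 9 letters thus stood before a gene that fell and before a gene that rose. Among all 32851 windows of that length 0.551% held TCACCCCAC on either strand, against 3 of the 56 member windows (5.36%), of which 2 overlap at Pcyt1a. An E-box was in 4 member windows (7.14%), those of Lpin2, Lpin3, Mlxipl and Plin2, and in 7.15% of all. CCAAT was in 53.6% of member windows and 37.4% of all, and the GC box GGGCGG in 58.9% and 35.7%. Of the 28 windows at members that fell, 13 held CCAAT. A match of letters is a description of the window and no evidence that a factor binds there.

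Across the 40 tested members, 20 were lower and 3 higher in PRDM3/16KO, and 17 were not called (edgeR's quasi-likelihood test, Benjamini-Hochberg adjusted p under 0.05 over all genes tested). Over all 13916 genes tested, 42.9% were called, 21.8% lower and 21.1% higher. The members' 20 of 40 (50.0%) lower stands above that background and their 3 higher below it. No set test was made. The members were chosen with earlier results of these data known, so this comparison is a description only. The median log2 fold change was -0.30 over the tested members and 0.0023 over all genes. For 16 of the 40 the CPM of every PRDM3/16KO library lay below every Control library, and for 1, Acsl1, above; over all genes these shares were 14.2% and 14.2%. By role, those lower were 2 of 2 tested regulators, 5 of 6 in fatty acid synthesis and 2 of 5 in activation and transport. Further on they were 5 of 9 in phosphatidic acid and diacylglycerol and 2 of 3 in triacylglycerol and droplets. In the choline branch 2 of 5 were lower and in reacylation 1 of 3. The ethanolamine, serine and CDP-diacylglycerol genes had 1 call among 7 tested.

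Reads of the 44 members together made up 0.498% to 0.640% of all counts in Control libraries and 0.359% to 0.394% in PRDM3/16KO libraries. Fasn alone held 27.8% to 32.2% of the members' summed CPM in Control and 15.3% to 16.5% in PRDM3/16KO. Without Fasn the sums were still 3492 to 4881 CPM against 2935 to 3182 CPM, ranges that did not overlap. In a bulk sample, fewer cells of a type and less RNA per cell cannot be told apart, and this holds for every decrease below. Beside them, 9 of 10 type 2 markers fell, with a median log2 fold change of -1.6 over the 10.

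**Figure D1:**
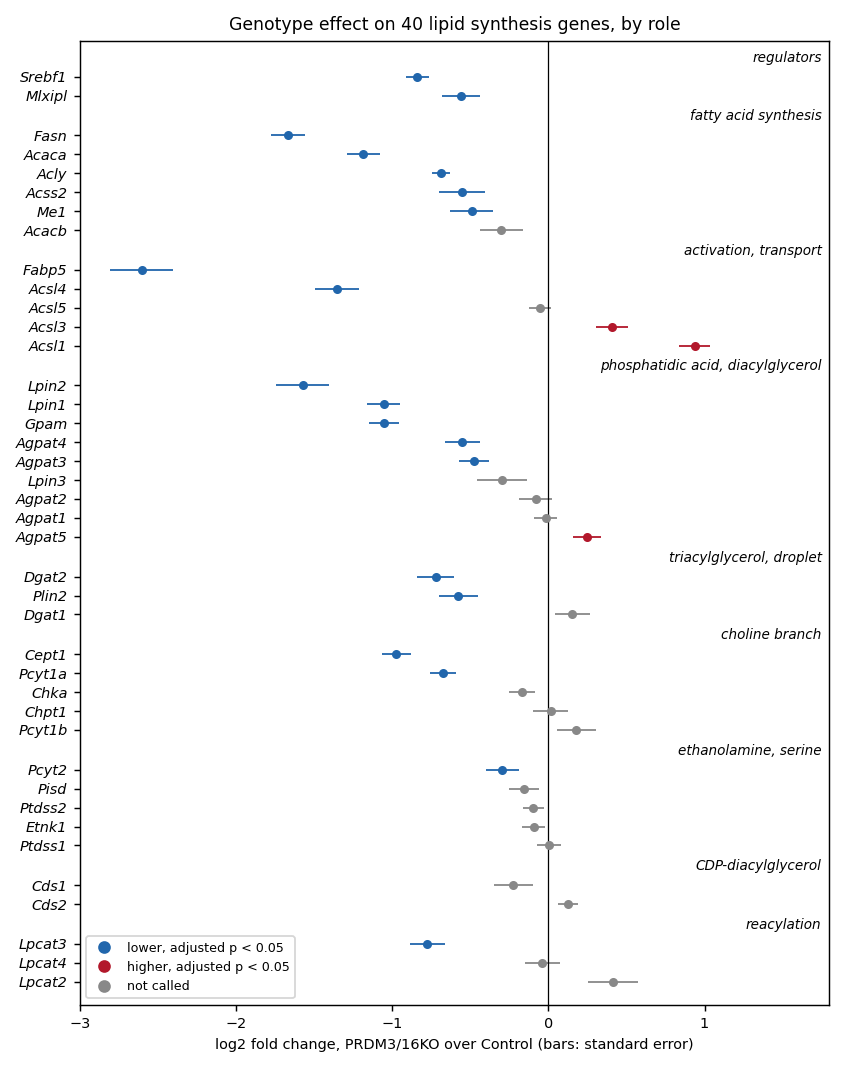
Log2 fold change of PRDM3/16KO over Control (horizontal axis) for the 40 tested members, grouped by role, with bars for the standard error. Blue points were called lower (20), red points higher (3) and grey points were not called (17); Fabp5 lies farthest left at -2.61 and Acsl1 farthest right at 0.94.

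Among the regulators, Srebf1 and Mlxipl fell and Thrsp was too low to test. Srebf1 encodes SREBP-1, the membrane-bound factor that drives lipogenic genes, at chromosome 11, 60199089 to 60222581 (mm10). Its CPM was 275 in the lowest, 310.3 in the median and 358 in the highest Control library, and 159, 173, 181, 183 and 176 in PRDM3/16KO libraries 1 to 5. Every knockout library was below every Control library, and the mean went from 313 ± 29.2 CPM (SD, n = 6) to 175 ± 9.56 CPM (SD, n = 5), which is -0.84 as log2 fold change (SE 0.0725; edgeR, adjusted p = 2.23e-07). Gene-level counts do not separate the SREBP-1a and SREBP-1c transcripts. Mlxipl, which encodes the glucose-responsive factor ChREBP, was far less abundant, at 1.63 CPM per kilobase of exon in Control against 55.5 for Srebf1. Its mean of 9.03 ± 0.731 CPM in Control fell to 6.12 ± 0.795 CPM (-0.56; edgeR, adjusted p = 0.00154). Thrsp, a nuclear protein linked to lipogenesis, had 22 counts in all Control libraries together and 62 in all knockout libraries; without a filter on low counts its log2 fold change was 1.52 (edgeR, adjusted p = 0.0110), against the direction of Srebf1.

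In the synthesis of palmitate 5 of 6 members fell and Acacb was not called. ATP citrate lyase, Acly (chromosome 11, 100476353 to 100528000), makes cytosolic acetyl-CoA from citrate. Its CPM was 174, 180.0 and 200.2 in the lowest, median and highest Control library and 109, 116, 111, 121 and 110.4 in PRDM3/16KO libraries 1 to 5. The groups lay apart with little spread inside either, and the log2 fold change was -0.69 (SE 0.0574; edgeR, adjusted p = 1.46e-07). Acss2, which makes acetyl-CoA from acetate, fell from 32.0 ± 6.74 to 21.7 ± 3.24 CPM (-0.55; edgeR, adjusted p = 0.00670), with overlapping ranges. Malic enzyme, Me1, a source of NADPH for the synthase, fell from 82.4 ± 19.9 to 58.4 ± 4.29 CPM (-0.49; edgeR, adjusted p = 0.00983), again with overlap, and 28.3% of the 50-base words of its transcripts also occur in other annotated genes.

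Acetyl-CoA carboxylase makes malonyl-CoA, and its cytosolic form for synthesis, Acaca (chromosome 11, 84129672 to 84401651), fell. Control libraries gave 32.7, 45.1 and 51.8 CPM as lowest, median and highest, and PRDM3/16KO libraries 18.6, 18.9, 20.4, 20.6 and 18.8 CPM. The knockout values lay close together and below all Control values; the log2 fold change was -1.19 (SE 0.106; edgeR, adjusted p = 3.20e-07). Of the 50-base words of its transcripts, 30.4% also occur in other annotated genes. That is a share of sequence and not of reads, so how far its counts are affected is not known. Acacb, the mitochondrial-surface form whose malonyl-CoA restrains fatty acid oxidation, was at 20.3 ± 2.4 and 16.5 ± 3.62 CPM and was not called (-0.30; edgeR, adjusted p = 0.0897). Leaving out PRDM3/16KO library 3 gave Acacb a call (-0.39; edgeR, adjusted p = 0.0356), as did the mesenchymal covariate (-0.75; edgeR, adjusted p = 0.00667); its adjusted p over the 22 alternatives ran from 0.00667 to 0.292.

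Fatty acid synthase, Fasn (chromosome 11, 120805846 to 120824547), was the most abundant member per exon length in Control, at 165 CPM per kilobase. Its CPM was 1348 in the lowest, 1879.6 in the median and 2218 in the highest Control library and 553, 540.4, 600.2, 612 and 542 in PRDM3/16KO libraries 1 to 5. The lowest Control library, number 6, was still 2.20 times the highest knockout library. The mean fell from 1811 ± 291 to 569.5 ± 34.1 CPM, 3.18-fold (log2 fold change -1.67, SE 0.109; edgeR, adjusted p = 1.21e-08), and in PRDM3/16KO its 52.0 CPM per kilobase came after the 57.9 of Cds1.

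**Figure D2:**
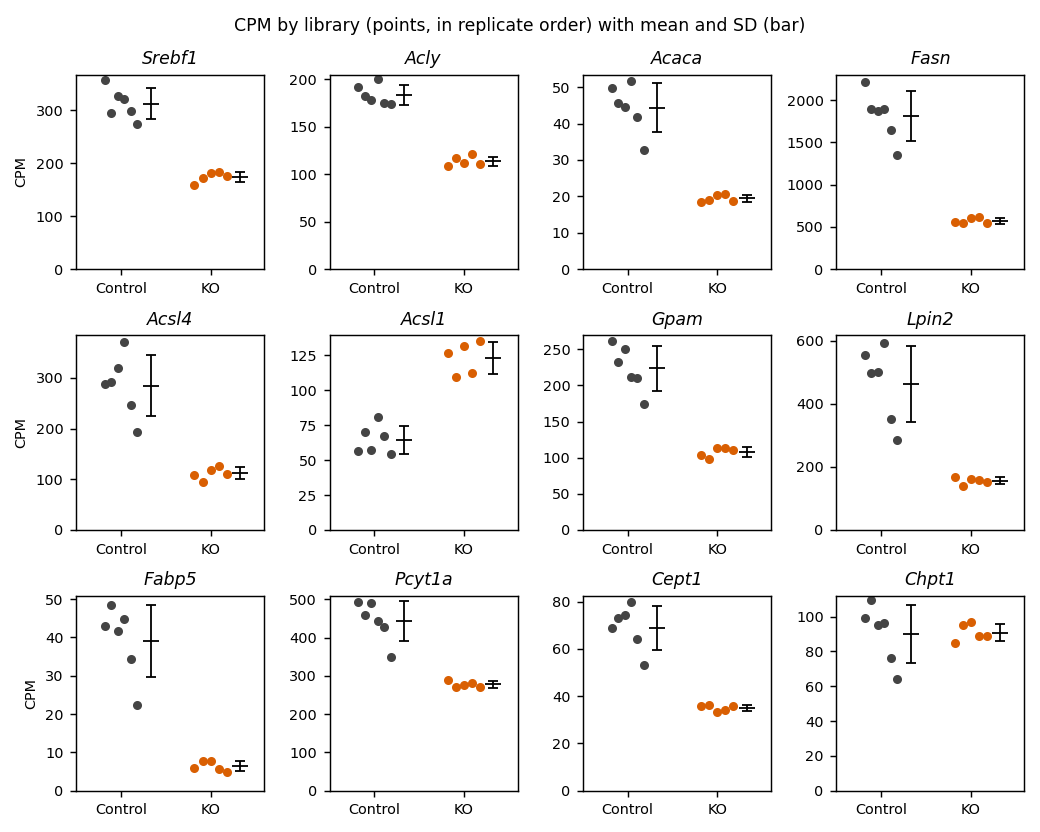
CPM (vertical axes, each starting at 0) of 12 members in the 6 Control and 5 PRDM3/16KO libraries, points in replicate order, with mean and SD as a bar beside them. The groups lie apart in every panel but that of Chpt1; Acsl1 is the panel in which PRDM3/16KO is higher, and Control library 6 is the lowest Control point for Fasn, Lpin2, Acsl4 and Fabp5.

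The acyl-CoA synthetases, which activate fatty acids by joining them to coenzyme A, moved in opposite directions. Acsl4, which prefers arachidonic acid, is on the X chromosome (142317993 to 142390535). It was at 193, 289.5 and 370.3 CPM in the lowest, median and highest Control library and at 108, 95.1, 118, 127 and 109 CPM in PRDM3/16KO libraries. It fell 2.55-fold without overlap (log2 fold change -1.35, SE 0.140; edgeR, adjusted p = 2.81e-06).

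Acsl1, the main synthetase of liver, fat and heart (chromosome 8, 46471037 to 46536051), rose. Control libraries were at 54.3, 62.4 and 80.8 CPM (lowest, median, highest) and PRDM3/16KO libraries at 127, 109.7, 132, 112 and 135 CPM. All 5 knockout libraries were above all Control libraries, a 1.91-fold rise (log2 fold change 0.94, SE 0.0998; edgeR, adjusted p = 2.15e-06). Acsl3, a synthetase of the endoplasmic reticulum and lipid droplets, was at 52.4, 61.6 and 83.0 CPM in Control and at 84.6, 75.0, 93.5, 78.1 and 83.6 CPM in PRDM3/16KO. Its ranges overlapped through Control library 4, and the log2 fold change was 0.41 (SE 0.103; edgeR, adjusted p = 0.00487). Acsl5 was level, at 84.0 ± 6.90 and 80.9 ± 6.39 CPM, and not called (-0.05; edgeR, adjusted p = 0.575).

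Fabp5, a fatty acid binding protein that carries fatty acids in the cytosol, had the largest fold change of the 40 tested members. It was at 22.5, 42.4 and 48.5 CPM in the lowest, median and highest Control library and at 5.83, 7.75, 7.68, 5.79 and 4.93 CPM in PRDM3/16KO. The lowest Control library was 2.90 times the highest knockout library, and the fall was 6.09-fold (log2 fold change -2.61, SE 0.199; edgeR, adjusted p = 1.28e-07). Of the 50-base words of its transcripts, 5.48% also occur in transcripts of 5 other annotated genes, so part of its counts may belong elsewhere.

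In the assembly of phosphatidic acid and diacylglycerol 5 of 9 members fell, Agpat5 rose and Agpat1, Agpat2 and Lpin3 were not called. Gpam, the mitochondrial glycerol-3-phosphate acyltransferase that starts the chain (chromosome 19, 55067268 to 55127238), was at 174, 222 and 261 CPM in Control and at 103, 98.0, 113, 113 and 111 CPM in PRDM3/16KO. It fell 2.07-fold without overlap (log2 fold change -1.05, SE 0.0935; edgeR, adjusted p = 2.99e-07).

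The acylglycerophosphate acyltransferases add the second acyl chain. Agpat3 fell from 211 ± 33 to 151 ± 7.44 CPM (-0.48; edgeR, adjusted p = 8.49e-04) and Agpat4 from 18.7 ± 1.87 to 12.8 ± 1.97 CPM (-0.55; edgeR, adjusted p = 9.57e-04). Agpat1 and Agpat2, the best studied members of the family, gave log2 fold changes of -0.02 and -0.08, with adjusted p of 0.860 and 0.574 by edgeR. Agpat5 was at 20.4, 25.4 and 28.2 CPM in Control and at 28.2, 30.0, 29.7, 33.1 and 27.9 CPM in PRDM3/16KO. Its rise was small (log2 fold change 0.25, SE 0.0893; edgeR, adjusted p = 0.0359), the ranges overlapped, and 18.9% of its exon bases overlap genes on the opposite strand. The Agpat5 call was lost under 8 of 22 alternatives, among them leaving out Control library 1, 4 or 5 or PRDM3/16KO library 3 or 4 (highest adjusted p of these by edgeR 0.0995). With the Y-linked covariate the log2 fold change of Agpat5 was 0.23 (edgeR, adjusted p = 0.0863).

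Lipins remove the phosphate of phosphatidic acid. Lpin2 (chromosome 17, 71182560 to 71249817), the most abundant of the 3 per exon length, was at 284, 499.8 and 594 CPM in Control and at 167, 138, 161, 158 and 153 CPM in PRDM3/16KO. The spread in Control came from libraries 5 and 6, at 350.1 and 284 CPM, while the other 4 were at 499 or above, and no Control library reached down to the knockout values. The fall was 2.98-fold (log2 fold change -1.57, SE 0.167; edgeR, adjusted p = 4.35e-06). Lpin1 was at 40.6, 50.6 and 60.6 CPM in Control and at 23.7, 24.6, 25.6, 24.3 and 22.3 CPM in PRDM3/16KO, a 2.08-fold fall without overlap (-1.06, SE 0.106; edgeR, adjusted p = 1.13e-06). Lpin3, at 12.5 ± 1.23 and 10.2 ± 2.73 CPM, was not called (-0.30; edgeR, adjusted p = 0.146) unless PRDM3/16KO library 4 was left out (-0.43; edgeR, adjusted p = 0.0386).

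Triacylglycerol and droplet genes fell in 2 of 3 tested cases. Dgat2, which makes triacylglycerol from newly made fatty acids, was at 30.0, 32.9 and 45.1 CPM in Control and at 22.7, 20.9, 24.5, 16.5 and 21.5 CPM in PRDM3/16KO. It fell without overlap (log2 fold change -0.72, SE 0.120; edgeR, adjusted p = 1.71e-04). Dgat1, which catalyses the same reaction and is unrelated in sequence, was at 13.5 ± 1.92 and 15.0 ± 1.31 CPM and was not called (0.15; edgeR, adjusted p = 0.292). Plin2, which coats lipid droplets, was at 55.2, 64.7 and 94.1 CPM in Control and at 49.6, 49.4, 50.2, 43.4 and 41.8 CPM in PRDM3/16KO. The groups lay just apart, and its log2 fold change was -0.58 (SE 0.125; edgeR, adjusted p = 0.00174). Pnpla3, a lipase and acyltransferase of droplets, had 37 Control and 15 knockout counts and was too low to test.

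In the choline branch, which makes phosphatidylcholine, Pcyt1a and Cept1 fell and the other tested members were not called. Pcyt1a, which makes CDP-choline and sets the rate of the branch (chromosome 16, 32430921 to 32475070), was at 349.7, 451 and 493 CPM in Control. In PRDM3/16KO libraries 1 to 5 it was at 290.4, 272, 276, 281 and 269.9 CPM. The fall was 1.6-fold without overlap (log2 fold change -0.68, SE 0.0826; edgeR, adjusted p = 8.69e-06). Its X-linked relative Pcyt1b was at 28.9 ± 5.45 and 32.7 ± 4.64 CPM and was not called (0.18; edgeR, adjusted p = 0.276).

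Choline kinase, Chka, which feeds Pcyt1a, was at 249 ± 29.4 and 221 ± 12.9 CPM (-0.17; edgeR, adjusted p = 0.105). It was called lower without Control libraries 5 and 6 (-0.26; edgeR, adjusted p = 0.00800) and without Control library 5 alone (-0.21; edgeR, adjusted p = 0.0478). Chkb had 6 Control and 8 knockout counts; 57.6% of its exon bases overlap other annotated genes, and how such reads were counted is not given in the sources used here.

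The last step is shared by choline phosphotransferase, Chpt1, and by Cept1, which also makes phosphatidylethanolamine. Cept1 (chromosome 3, 106502260 to 106547802) was at 53.3, 71.0 and 79.9 CPM in Control and at 35.8, 36.1, 33.4, 34.0 and 35.8 CPM in PRDM3/16KO. Its knockout libraries lay close together and below all Control libraries, a 1.96-fold fall (log2 fold change -0.97, SE 0.0915; edgeR, adjusted p = 5.46e-07), though 24.9% of its exon bases overlap 2 opposite-strand genes, Dennd2d and Dram2. Chpt1 was at 64.2, 95.8 and 109 CPM in Control and at 84.7, 95.3, 96.7, 88.9 and 88.6 CPM in PRDM3/16KO, inside the Control range (0.01, SE 0.113; edgeR, adjusted p = 0.934).

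Of the 5 tested ethanolamine and serine genes 1 was called. It was Pcyt2, which makes CDP-ethanolamine and fell from 68.9 ± 11.3 to 56.0 ± 5.38 CPM (-0.30, SE 0.105; edgeR, adjusted p = 0.0327). That call was lost under 8 of 22 alternatives, among them leaving out Control library 1 or 4 or PRDM3/16KO library 1, 4 or 5 (highest adjusted p of these by edgeR 0.0899). With the Y-linked covariate the log2 fold change of Pcyt2 was -0.26 (edgeR, adjusted p = 0.105). Ethanolamine kinase, Etnk1, the most abundant of the group by CPM, was at 206, 226 and 248 CPM in Control and at 235, 196, 223, 201 and 207 CPM in PRDM3/16KO, overlapping ranges (-0.09; edgeR, adjusted p = 0.316). The phosphatidylserine synthases Ptdss1 (0.0049) and Ptdss2 (-0.10) and the decarboxylase Pisd (-0.16) were not called (edgeR, adjusted p 0.967, 0.278 and 0.211). Pisd was called lower without Control libraries 5 and 6 (-0.26; edgeR, adjusted p = 0.0226), and 20.9% of its exon bases overlap same-strand genes. Pemt, the liver enzyme that methylates phosphatidylethanolamine, had 25 Control and 20 knockout counts and was not tested.

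CDP-diacylglycerol synthases, which open the branch to phosphatidylinositol and phosphatidylglycerol, were not called. Cds1 was at 184, 272 and 344 CPM in Control and at 244, 199, 242, 227 and 228 CPM in PRDM3/16KO, within the Control range (log2 fold change -0.23, SE 0.126; edgeR, adjusted p = 0.166). Control library 6 was its lowest library; without it Cds1 was called lower (-0.31; edgeR, adjusted p = 0.0112), and without libraries 5 and 6 as well (-0.38; edgeR, adjusted p = 0.00178). Cds2 was at 161 ± 13.9 and 175 ± 7.17 CPM (0.13; edgeR, adjusted p = 0.135), and was called higher without Control library 3 (0.17; edgeR, adjusted p = 0.0409). Per exon length, Cds1 was the second most abundant member in Control, at 67.8 CPM per kilobase.

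Reacylation of lysophospholipids exchanges acyl chains after synthesis. Lpcat3, which prefers polyunsaturated chains, was at 29.7, 36.6 and 44.3 CPM in Control and at 18.4, 22.7, 21.0, 23.8 and 20.4 CPM in PRDM3/16KO, a fall without overlap (log2 fold change -0.77, SE 0.112; edgeR, adjusted p = 4.41e-05). Lpcat2 was at 4.45 ± 0.794 and 5.96 ± 0.910 CPM and narrowly missed the threshold (0.41; edgeR, adjusted p = 0.0503); it was called higher without Control library 2 or 5 or PRDM3/16KO library 5 (edgeR, adjusted p 0.0360, 0.0486 and 0.0389). Lpcat4 was at 15.4 ± 1.78 and 14.9 ± 1.96 CPM (-0.04; edgeR, adjusted p = 0.812).

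**Figure D3:**
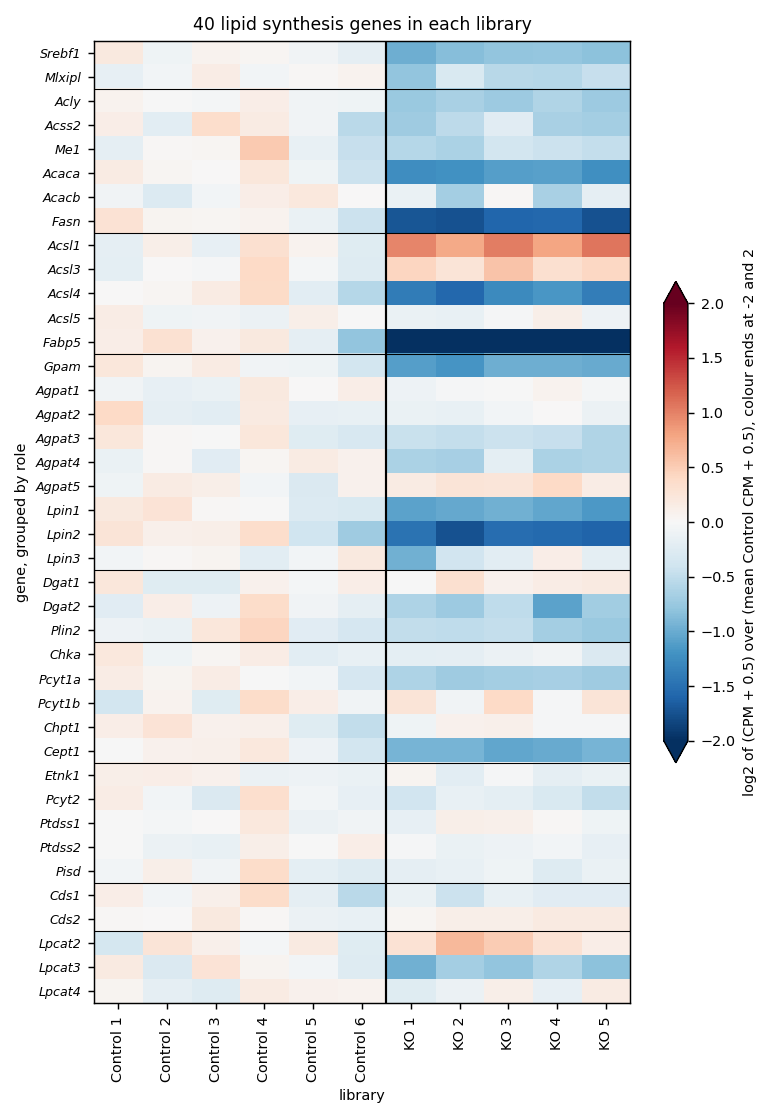
Each row is a tested member and each column a library; colour gives log2 of (CPM + 0.5) over (mean Control CPM + 0.5), and lines divide the roles. PRDM3/16KO columns are blue for Fasn, Acaca, Fabp5, Lpin2 and Cept1 and red for Acsl1, and among Control columns number 6 holds the lowest value for 15 of the 20 members that fell.

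Control libraries were not alike in the genes that fell. Of the 20 members called lower, 15 had their lowest Control value in library 6, and in 12 libraries 5 and 6 were the lowest pair. These are also the libraries with more proliferation transcripts and fewer type 2 transcripts. Without them calls over all genes also rose, to 3345 lower and 3183 higher of 13987 tested. With all libraries these were 3037 and 2936 of 13916. Among the members 23 were lower and 3 higher without libraries 5 and 6. Those 3 were not the same as with all libraries, since Agpat5 lost its call (0.20, edgeR, adjusted p = 0.0772). With all libraries and the mean log2 CPM of Y-linked genes as a covariate, 19 members were lower and 2 higher, against 20 and 3 without it. Of all genes tested 2556 were lower and 2523 higher with it. The calls lost were those of Pcyt2 and Agpat5. Whether the type 2 share of the cells moved the members was not tested.

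Marker transcripts of other cell types also differed between the groups. The number of cells and the RNA per cell cannot be told apart here either. Mesenchymal markers rose in 6 of 9 tested cases, with summed CPM over 10 genes of 253 to 426 in Control and 405 to 743 in PRDM3/16KO. All 6 mesothelial markers rose, with sums of 155 to 296 and 449 to 566.5 CPM. Of 5 tested endothelial markers 3 rose and 1, Kdr, named here after its values were seen, fell, with sums over the 6 listed of 59.5 to 101 and 46.4 to 67.4 CPM. Of 5 tested blood markers 2 rose, and the 3 haemoglobin genes of that list were at 0. Of 10 fat cell and lipofibroblast genes, 8 were too low to test and the other two, Lpl and Lipe, were not called. Summed counts in Control and then PRDM3/16KO were 5 and 48 for Fabp4, 6 and 33 for Adipoq, 12 and 40 for Cidec, 3 and 27 for Adig, 2 and 7 for Plin1, 0 and 2 for Lep, 0 and 1 for Ucp1 and 1 and 0 for Retn. These counts were low in both groups and larger in the knockout for 7 of the 8 genes, and for Adig the CPM ranges did not overlap. The mean log2 CPM of the 10 genes was 0.21 to 0.56 in Control and 0.47 to 1.18 in PRDM3/16KO, while their sum, mostly Lpl, was 54.5 to 173 and 81.6 to 100.5 CPM. The part of such cells in the members' values was not tested. With the mesenchymal mean as a covariate, 15 members were lower and 1, Acsl1, higher. Over all genes tested 1504 were lower and 1511 higher in that fit, against 3037 and 2936 without the covariate. The mesenchymal mean itself nearly separated the groups, at 3.266 to 4.143 log2 CPM in Control and 4.132 to 5.003 in PRDM3/16KO. A call lost in that fit is therefore not read as particular to a gene. Mlxipl, Acss2, Me1, Agpat3, Plin2, Pcyt2, Acsl3 and Agpat5 lost their calls in that fit (edgeR, adjusted p 0.0543 to 0.32). Their log2 fold changes with the covariate were -0.54 for Mlxipl, -0.69 for Acss2, -0.41 for Me1, -0.43 for Agpat3, -0.60 for Plin2, -0.26 for Pcyt2, 0.36 for Acsl3 and 0.34 for Agpat5. Those of Acss2, Plin2 and Agpat5 were farther from 0 than without it, and the other 5 nearer.

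Enzymes of the same step were compared inside each library for 13 pairs fixed as relatives or as catalysts of the same reaction. The measure was log2 of the ratio of their CPM, each with 0.5 added, and each difference was tested by an exact two-sided permutation test over the 462 divisions of the libraries, whose smallest possible p is 0.00216, adjusted over the 13 pairs. In 8 pairs the balance differed between the groups. No share was computed for pairs of other genes, and 42.9% of all genes tested were called singly. The count of 8 is therefore not read as particular to these enzymes. The widest shift of the 13 was from Acsl4 toward Acsl3, whose log2 ratio went from -2.16 ± 0.20 (SD, n = 6) to -0.42 ± 0.154 (SD, n = 5), a difference of 1.74 (exact permutation test, adjusted p = 0.00938). Control libraries held ratios of -2.38 to -1.87 and knockout libraries of -0.69 to -0.34, so the groups lay far apart.

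Acsl1 over Acsl5 rose by 0.99, Chpt1 over Cept1 by 0.99 and Dgat1 over Dgat2 by 0.86, each without overlap (exact permutation test, adjusted p = 0.00938 for each). Pcyt1a over Pcyt1b fell by 0.85 and Acaca over Acacb by 0.84 (exact permutation test, adjusted p = 0.00938 for each). Lpin1 over Lpin2 rose by 0.50 (exact permutation test, adjusted p = 0.0121), since Lpin2 fell more than Lpin1 did. The mean log2 ratio of Chpt1 to Cept1 was 0.37 ± 0.144 in Control and 1.36 ± 0.108 in PRDM3/16KO. Cds1 over Cds2 fell by 0.33 (exact permutation test, adjusted p = 0.0457), a call lost when any of 9 libraries was left out (adjusted p up to 0.108).

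Agpat1 over Agpat2, Agpat3 over Agpat4, Ptdss1 over Ptdss2 and Lpcat2 over Lpcat4 were not called, with differences of 0.06, 0.07, 0.09 and 0.43 (exact permutation test, adjusted p 0.781, 0.743, 0.358 and 0.0875). Lpcat2 over Lpcat4 was called without PRDM3/16KO library 5 (0.54; exact permutation test, adjusted p = 0.0464). The ratio of Chka to Chkb rests on the few Chkb counts and is not read.

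**Figure D4:**
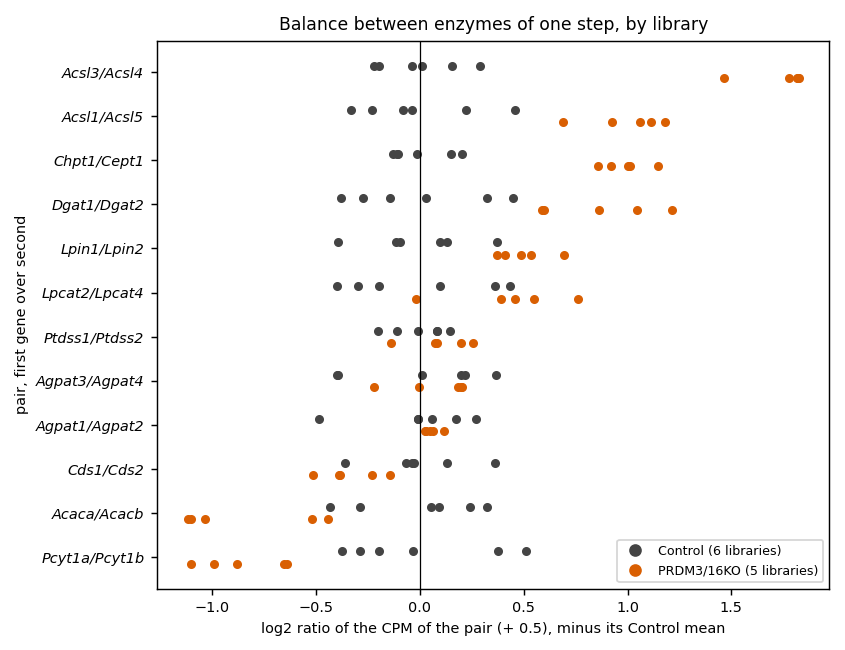
Log2 ratio of the CPM of 12 pairs of enzymes in each library (horizontal axis), relative to the mean of the 6 Control libraries; dark grey points are Control and orange points PRDM3/16KO. Knockout points lie to the right of all Control points for Acsl3/Acsl4, Acsl1/Acsl5, Chpt1/Cept1 and Dgat1/Dgat2, and to the left for Pcyt1a/Pcyt1b and Acaca/Acacb.

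The rest of the pathway was read from 71 further genes of textbook membership, also listed with earlier results of these data known. Of these 63 were tested: 22 fell and 11 rose, 34.9% lower against 21.8% over all genes, with a median log2 fold change of -0.11. Of 17 further regulators 9 fell (52.9%) and 4 rose. Insig1, which holds SREBP in the endoplasmic reticulum and is itself a target of it, fell from 469 ± 64.1 to 213 ± 26.9 CPM (-1.14; edgeR, adjusted p = 5.56e-07). Mid1ip1, which activates acetyl-CoA carboxylase and is related to Thrsp, fell from 682 to 317 CPM (-1.10; edgeR, adjusted p = 9.20e-07), and the factor Cebpa fell as well (-0.88; edgeR, adjusted p = 4.83e-06). Pparg, the nuclear receptor of fat storage, rose from 4.44 ± 0.90 to 13.2 ± 2.55 CPM (1.58; edgeR, adjusted p = 1.43e-06). Prkaa1 (0.09) and Usf1 (0.05) were not called.

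Of 19 further genes of fatty acid synthesis, uptake and activation 7 fell (36.8%) and 2 rose. The acyl-CoA binding protein Dbi (-0.99), the mitochondrial acetyl-CoA synthetase Acss1 (-0.63) and the fatty acid transporter Cd36 (-1.53) fell (edgeR, adjusted p 6.27e-06, 2.17e-05 and 1.30e-04). Cd36 went from 185 ± 61.4 to 63.7 ± 12.7 CPM. The brain-type synthetase Acsbg1 had 4 counts in all Control libraries together and 163 in all knockout libraries and rose (edgeR, adjusted p = 2.12e-07). Slc27a1 and Mcat were not called.

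Of 27 further glycerolipid genes 6 fell (22.2%) and 5 rose, and the share that fell was close to the 21.8% over all genes. Lpcat1, which makes the disaturated phosphatidylcholine of surfactant, fell from 325 ± 44.4 to 101 ± 13.9 CPM (-1.68; edgeR, adjusted p = 1.43e-08). The phosphatidylglycerophosphate synthase Pgs1 (-1.24) and the glycerol-3-phosphate dehydrogenase Gpd1 (-1.18) fell, while the ethanolamine kinase Etnk2 rose from 5.67 ± 0.88 to 15.6 ± 1.78 CPM (1.45; edgeR, adjusted p = 2.40e-07). The choline transporter Slc44a2 (-0.14) and the phosphatidylinositol synthase Cdipt (-0.15) were not called.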

How the data were processed

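Bulk RNA sequencing counts of 11 libraries were analysed. The deposited values are whole-number counts per gene symbol, not normalized; per the submitters' processing notes the build was mm10 and the tools included Bowtie2 2.4.2 and HTSeq 2.0. The annotation and the strand setting: not given in the sources used here.

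Genotypes were compared with edgeR 4.0.16 in R 4.3.3 (filterByExpr, TMM scaling, robust quasi-likelihood test), adjusted by Benjamini-Hochberg over 13916 genes. CPM used the TMM-scaled library sizes. Enzyme pairs were tested by exact permutation of log2 ratios with 0.5 CPM added. Exon lengths, overlaps and shared words came from GENCODE M21. DESeq2 1.42.0 and limma 3.58.1 served as alternatives, with other scalings, filters, covariates and left-out libraries.

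The members and gene lists were chosen with earlier results of these data known. All members are named. For the 14 smallest p, the highest CPM of each role and those that rose, knockout values are given by library. Control values of these members are given as lowest, median and highest. Chpt1 was added to them after its values were seen, as the counterpart of Cept1. Of each further pathway list, up to 4 called genes by p and up to 2 uncalled genes by CPM are named. In data simulated for this comparison (13826 genes), 14% of 1.25-fold, 68% of 1.5-fold, 90% of 2-fold and 100% of 4-fold changes were called. Only 50 genes were changed at each fold there, while 42.9% of the genes tested were called in the data. The adjustment of p was thus stricter in the simulation, and its shares do not carry over directly.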

Additional observations from a re-analysis of the deposited data

Results flagged for a closer look

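Each member was checked in each group for a library far from the others; 4 of 88 groups had one, and chance alone gives about 1 in 20. Acsl3 was at 83.04 CPM in Control library 4, with the next Control library at 63.07 CPM. Ptdss1 was also highest in Control library 4, at 54.26 CPM, with the next at 47.01 CPM. Agpat3 was lowest in PRDM3/16KO library 5, at 138.4 CPM, with the next at 151.7 CPM. Agpat4 was highest in PRDM3/16KO library 3, at 16.26 CPM, with the next at 12.21 CPM.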

How the results depend on the processing

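Over 22 alternatives, 809 of 880 member values kept their direction and side of the threshold, 22 lost a call, 20 gained one and 29 changed sign; 17 of the 40 members kept both under all of them. The count of lower members, 20, ran from 15 (mesenchymal covariate) to 23, and leaving out 1 library gave 19 to 21 lower and 2 to 4 higher. Higher members numbered 5 with library size only and 1 with the mesenchymal covariate. That covariate left 1511 higher and 1504 lower among the genes tested, and 12 lower among the other pathway genes. Scaling by library size only gave 3992 higher and 2095 lower genes against 2936 and 3037, and moved the median over the genes tested to 0.107 (log2). Leaving out 1 library gave 2644 to 3120 higher and 2620 to 3269 lower genes. For the other pathway genes it gave 9 to 12 higher and 21 to 24 lower.

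The sign changes were all of uncalled members or pairs. With library size only, log2 fold changes were 0.050 for Acsl5, 0.085 for Agpat1, 0.027 for Agpat2, 0.015 for Etnk1, 0.0070 for Ptdss2 and 0.066 for Lpcat4. With the proliferation covariate they were -0.052 for Chpt1 and -0.021 for Ptdss1. Without Control libraries 5 and 6 they were 0.021 for Agpat1, -0.14 for Chpt1, -0.044 for Ptdss1 and 0.0070 for Lpcat4. Leaving out 1 library gave -0.051 to 0.021 for Agpat1, -0.12 to 0.010 for Agpat2, -0.068 to 0.079 for Chpt1, -0.019 to 0.049 for Ptdss1 and -0.096 to 0.011 for Lpcat4. The cause was not tested.

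Of the enzyme pairs, Agpat1 over Agpat2 was called without Control libraries 5 and 6 (0.17) and Agpat3 over Agpat4 changed sign (-0.13). Leaving out 1 library gave -0.041 to 0.11 for Agpat1 over Agpat2, -0.0066 to 0.15 for Agpat3 over Agpat4, -0.40 to -0.26 for Cds1 over Cds2 and 0.35 to 0.54 for Lpcat2 over Lpcat4.

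Replicate numbers recur in both groups. Correlations of same-numbered libraries' deviations were -0.0592, 0.0942, -0.0543, 0.01 and 0.271, and 1 of 5 correlated best with its own number. The labels name no pairing, and so few values cannot decide whether the numbers pair the libraries. With a replicate block 22 members were lower and 3 higher, and Agpat1 (0.016), Chpt1 (-0.061) and Ptdss1 (-0.009) changed sign, while Chka (-0.19) and Cds1 (-0.31) gained a call. Depth limits the 4 untested members, of which Chkb had 6 Control counts.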
